A study of Homo sapiens with 18 samples.

Results

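Human prostate cancer cells were labelled with a galectin-4 construct, a galectin-4 knockdown or a scramble control. Members of the bone morphogenetic protein (BMP) and transforming growth factor beta (TGF-beta) pathways, 9 genes in all, were followed across these cells. They were the target genes ID1, ID2 and ID3, the inhibitory SMAD genes SMAD6 and SMAD7, the antagonists CHRD and BAMBI, and the matricellular genes CCN1 (formerly CYR61) and CCN2 (formerly CTGF). The genes were chosen by symbol, current or former, with their measured levels and changes on these same arrays already known, so their values are given as a description with no p-values printed, and whether one passed the threshold used for all genes is part of that description. All 9 were on the array, read by 13 probes, and all 9 passed the detection filter. The array named 20041 genes, of which 13680 passed that filter.

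RNA was measured on 18 Illumina bead arrays, 3 in each of 6 groups. The first 2 groups, called 22Rv1 control and 22Rv1 Dox, were 22Rv1-tetO-Gal4 cells, whose galectin-4 construct is named for tetO, without and with doxycycline (Dox). LNCaP control and LNCaP Dox were LNCaP-tetO-Gal4 cells, without and with Dox. M4 scramble and M4 shGal4 were 22Rv1-M4 cells with a scramble control (M4-shCtrl) and with a knockdown of galectin-4, and their labels name no Dox. LNCaP and 22Rv1 are established human prostate cancer lines, and the labels say no more of how 22Rv1-M4 was derived. By their labels M4 scramble and 22Rv1 control also differ in construct. In comparisons of these groups an effect of the line and one of the construct cannot be told apart. Neither the Dox dose nor the time is in the labels, and no group received Dox without the construct, so an effect of Dox alone and one of galectin-4 cannot be told apart. Whether the replicates came from separate cultures is not in the labels, and the spread behind each standard error and p-value may therefore be technical.

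BMPs and TGF-beta are secreted ligands that bring together type I and type II receptor kinases, which phosphorylate receptor SMAD proteins. Phosphorylated SMADs join SMAD4 and enter the nucleus, where ID1, ID2 and ID3 are among the best known genes switched on by BMPs. The pathways also induce their own brakes, among them SMAD6, SMAD7 and BAMBI, while chordin, the product of CHRD, binds BMPs outside the cell.

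The promoters of 5 genes are shown here, taken from RefSeq on GRCh38.p14, because ID1, ID2 and ID3 varied together and CHRD and CCN2 had the largest changes with Dox in 22Rv1. Each sequence is the 250 bases before the annotated start, 5′ to 3′ on the strand of the gene. Capitals mark matches to GTCT or AGAC (the SMAD box), GGCGCC (a GC-rich SMAD element) and CATTCC or GGAATG (the element bound by TEAD factors).
ID1 (chr20:31605039-31605288, forward strand): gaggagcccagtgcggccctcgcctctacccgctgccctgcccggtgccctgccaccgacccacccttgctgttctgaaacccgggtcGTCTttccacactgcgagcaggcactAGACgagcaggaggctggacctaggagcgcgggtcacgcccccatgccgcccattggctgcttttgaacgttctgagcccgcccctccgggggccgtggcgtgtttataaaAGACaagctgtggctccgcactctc
ID2 (chr2:8681806-8682055, forward strand): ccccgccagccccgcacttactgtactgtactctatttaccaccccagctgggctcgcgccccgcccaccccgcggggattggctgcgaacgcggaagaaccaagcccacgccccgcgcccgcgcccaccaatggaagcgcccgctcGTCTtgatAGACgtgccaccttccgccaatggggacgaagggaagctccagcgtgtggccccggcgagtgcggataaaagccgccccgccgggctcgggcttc
ID3 (chr1:23559502-23559751, reverse strand): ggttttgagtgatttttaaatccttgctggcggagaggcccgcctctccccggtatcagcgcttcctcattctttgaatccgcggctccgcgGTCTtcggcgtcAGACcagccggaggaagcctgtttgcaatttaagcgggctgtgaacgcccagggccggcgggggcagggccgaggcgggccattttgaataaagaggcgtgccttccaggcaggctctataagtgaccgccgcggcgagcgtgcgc
CHRD (chr3:184379804-184380053, forward strand): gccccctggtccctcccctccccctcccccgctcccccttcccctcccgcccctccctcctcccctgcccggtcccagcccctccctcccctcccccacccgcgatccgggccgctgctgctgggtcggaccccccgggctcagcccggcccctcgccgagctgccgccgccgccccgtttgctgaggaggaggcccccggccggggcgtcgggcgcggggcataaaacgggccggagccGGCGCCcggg
CCN2 (chr6:131951373-131951622, reverse strand): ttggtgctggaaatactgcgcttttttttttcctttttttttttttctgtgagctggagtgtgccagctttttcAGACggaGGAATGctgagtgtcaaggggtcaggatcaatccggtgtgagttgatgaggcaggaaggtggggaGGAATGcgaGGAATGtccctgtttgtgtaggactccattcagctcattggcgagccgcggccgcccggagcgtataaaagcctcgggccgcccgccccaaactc

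Promoters were matched for 8 of the 9 genes, and CCN1 was not matched. On the same build SMAD6 lies at chr15:66702236-66782849, SMAD7 at chr18:48919853-48950965, BAMBI at chr10:28677521-28682932 and CCN1 at chr1:85580761-85583950. The SMAD box was found 3 times before ID1, 2 times before ID2 and before ID3, and 1 time before CCN2, and these 4 letters occurred in 77.5% of all 35116 promoter windows of this length in the RefSeq table. The window of CHRD held no SMAD box and 1 GGCGCC, whose first base lay 10 bases before the start, and that of BAMBI, not shown, held 4 SMAD boxes and 3 GGCGCC, the latter at 209, 196 and 181 bases before the start. GGCGCC occurred in 16.4% of all windows. It holds only G and C, which made up 81.6% of the CHRD window and 81.2% of the BAMBI window, against a median of 58% over all windows. CCN2 held GGAATG 3 times, at 169, 104 and 95 bases before the start, against any match in 11.9% of windows. The CAGA box, CAGACA or TGTCTG, contains the SMAD box and was in 13.6% of all windows and in none of the 8 genes. Both strands were searched, and a match is a run of letters, not a site shown to be bound.

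Levels are given as log2 values after background correction and quantile normalization, and each group has 3 arrays. A gene is called where its Benjamini-Hochberg adjusted p from limma over all 13680 genes is under 0.05, and a probe is above background on an array where its detection p-value is under 0.05. Within groups the correlation between arrays was 0.976 to 0.996, and 41.9% to 45.1% of probes were above background on each array. LGALS4, the gene for galectin-4, was 12.41, 12.46 and 12.46 in M4 scramble and 5.32, 4.79 and 4.87 in M4 shGal4, a log2 difference of -7.45 (SE 0.21). In LNCaP it was 4.53, 4.64 and 4.57 without Dox, on no array above background, and 5.73, 6.79 and 6.96 with Dox, at least 3.41-fold higher. In 22Rv1 it was 5.91, 5.96 and 5.84 without Dox and 5.84, 5.68 and 6.00 with Dox, where the arrays overlapped and the difference was -0.06 (SE 0.21). A rise of the intended gene was thus not seen in the arrays labelled 22Rv1 Dox, and every direction given for them rests on that label. Whether this probe can read the transcript of the construct was not checked. Of the 10 luminal markers listed, 8 were analysed here. Of these, 6 to 8 were above background on all arrays of a group, with KLK3 above background in LNCaP only. Of 7 fibroblast markers, 1 to 3 were above background on all arrays of a group (COL1A1 in every group), of 4 endothelial markers at most 1 (VWF, in LNCaP), and of 3 leukocyte markers 1 (CD68).

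The arrays had 2 features that touch these genes. M4 shGal4 replicate 3 was low in ID1, ID2 and ID3. Correlations within groups and the knockdown differences of ID1, ID2, ID3 and BAMBI are given with and without it. The knockdown differences of other genes, among them all pathway genes, are given with it only. A single axis also held 24.8% of the variation within groups, and on it the mean score was -25.5 in LNCaP Dox against 7.67 in LNCaP control, while 22Rv1 Dox replicates 2 and 3 lay at -18.2 and 30.3. ID1 was higher where the score was lower (r of -0.52 within groups over 18 arrays, and -0.67 without M4 shGal4 replicate 3), with a loading at the 0.453 percentile of all genes, and so was ID2 (r of -0.63, and -0.69 without it), at the 3.19 percentile. ID3 followed the axis less, with r of -0.23, and -0.04 without that array, at the 13.5 percentile. Where this axis was used as a covariate, its score included the gaps between group means. Such fits may therefore also remove part of a difference between groups.

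**Figure D1:**
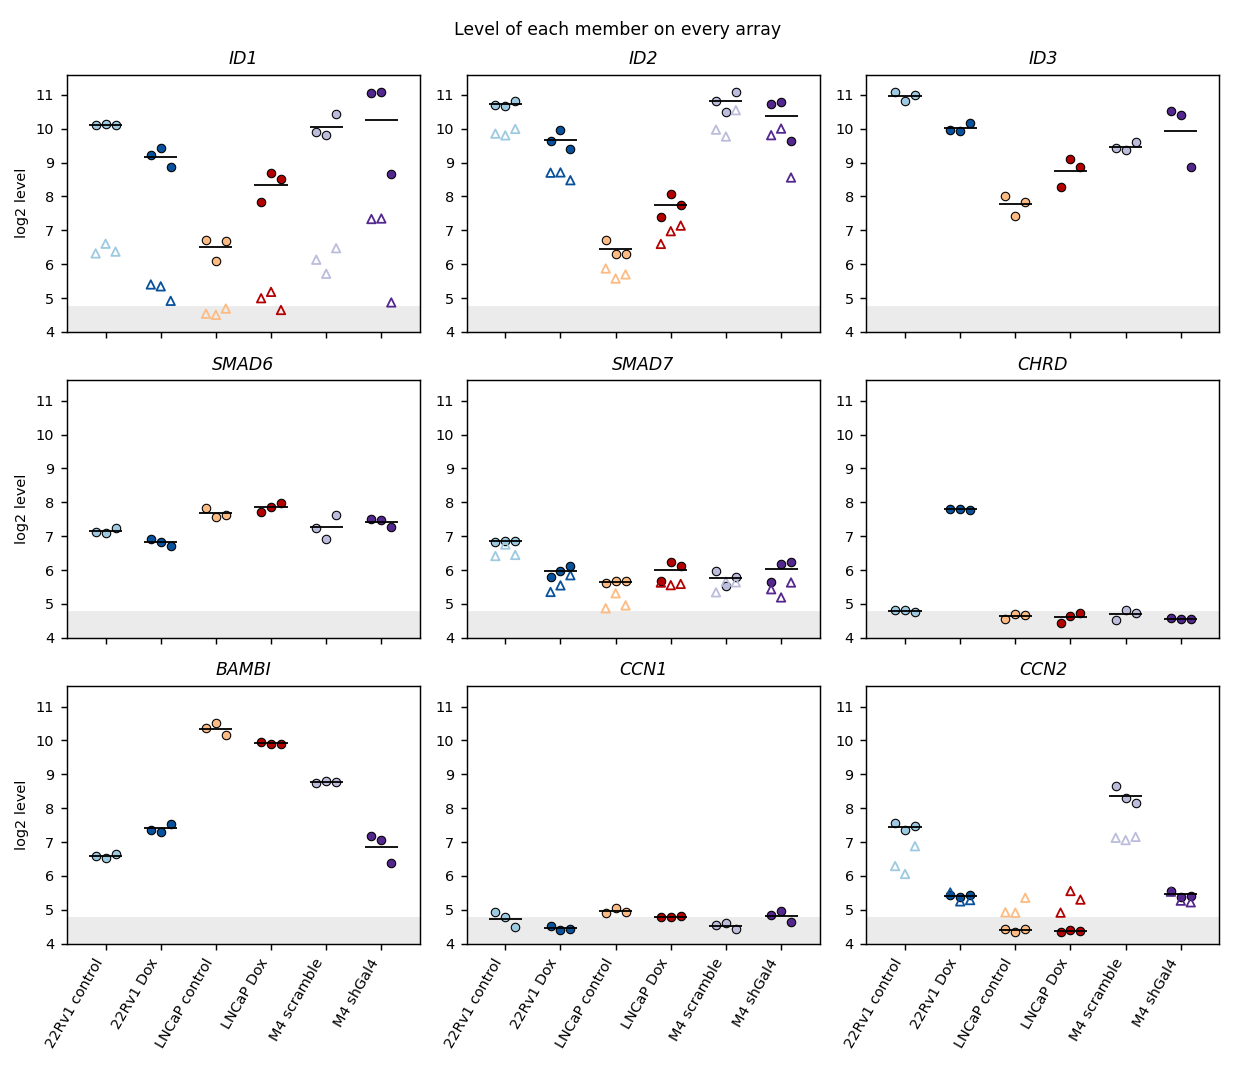
Log2 level (vertical axis) of each of the 9 genes on every array in the 6 groups. Filled circles are the probe tested, open triangles the other probe where there is one, bars the group mean of the tested probe, and the grey band the range up to 4.75, the lowest level of a probe above background on the array where it was highest. CHRD leaves the band by a wide margin in 22Rv1 Dox, CCN1 stays near it in every group, and 1 M4 shGal4 array is low in ID1, ID2 and ID3.

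CHRD, the secreted BMP antagonist chordin, was read by 1 probe. Its level was 7.81, 7.81 and 7.78 in the arrays labelled 22Rv1 Dox against 4.82, 4.81 and 4.77 in 22Rv1 control, a difference of 3.00 (SE 0.12), which is 8.00-fold. The 3 Dox arrays were nearly equal and far from the controls, whose detection p-values of 0.0247 to 0.0312 put them only just above background. Without background correction the same difference was 1.41. In LNCaP the level was 4.55, 4.71 and 4.67 without Dox and 4.43, 4.64 and 4.73 with Dox, above background on none of the 6 arrays. The M4 scramble arrays, at 4.54, 4.82 and 4.73, and the M4 shGal4 arrays, at 4.57, 4.57 and 4.56, also lay near background. These are bulk arrays, so a change in every cell and a change in the share of cells with the transcript cannot be told apart. Over the 6 groups, CHRD thus stood clear of background in 22Rv1 Dox, and the other 5 groups overlapped with their neighbours in the order of levels.

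BAMBI encodes a membrane pseudoreceptor that resembles type I receptors, lacks their kinase and dampens TGF-beta and BMP signals. It was highest in LNCaP control, at 10.36, 10.50 and 10.17, and a little lower in LNCaP Dox, at 9.95, 9.91 and 9.88. These groups did not overlap, and the difference was -0.43 (SE 0.16), which lost its call in 5 of the 6 fits that left out 1 array and in 4 of the 10 other settings. In 22Rv1 the level went the other way, from 6.59, 6.53 and 6.65 without Dox to 7.36, 7.31 and 7.54 with Dox, a difference of 0.82 (SE 0.16).

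M4 scramble cells had BAMBI at 8.75, 8.80 and 8.77, between 22Rv1 and LNCaP. The knockdown arrays lay at 7.17, 7.05 and 6.38, all below the scramble arrays, a difference of -1.90 (SE 0.16) or 3.74-fold. Without M4 shGal4 replicate 3, the lowest of them, the difference was -1.66. The group means of BAMBI ran in the order LNCaP control, LNCaP Dox, M4 scramble, 22Rv1 Dox, M4 shGal4 and 22Rv1 control, and the last 2 overlapped. BAMBI was 13.5-fold higher in LNCaP control than in 22Rv1 control (log2 difference 3.76, SE 0.16) and 4.53-fold higher in M4 scramble.

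SMAD7, which blocks receptors of both pathways and recruits ubiquitin ligases to them, was highest in 22Rv1 control, at 6.83, 6.87 and 6.85. In the arrays labelled 22Rv1 Dox it was 5.80, 5.96 and 6.11, without overlap, a difference of -0.89 (SE 0.17). LNCaP had 5.60, 5.68 and 5.67 without Dox and 5.67, 6.24 and 6.12 with Dox, where the groups overlapped and the difference of 0.36 (SE 0.17) was not called. It gained a call without LNCaP Dox replicate 1, at 0.53, with the mean of both probes, at 0.45, and with array weights, at 0.43. In 22Rv1-M4 the arrays overlapped, at 5.96, 5.54 and 5.80 with scramble and 5.64, 6.19 and 6.24 with the knockdown. SMAD7 was lower than in 22Rv1 control both in M4 scramble, with a log2 difference of -1.08 (SE 0.17), and in LNCaP control, with -1.19 (SE 0.17).

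SMAD6, the inhibitory SMAD that acts mainly on BMP signals, had the narrowest range of the genes clearly above background, from 6.72 to 7.99 over 18 arrays. It was 7.13, 7.09 and 7.23 in 22Rv1 control and 6.91, 6.82 and 6.72 in 22Rv1 Dox. The arrays did not overlap, but the difference of -0.33 (SE 0.15) was not called. It was called with median scaling (-0.52), with array weights (-0.26) and with the within-group axis as a covariate (-0.45). In LNCaP control SMAD6 was 7.83, 7.57 and 7.63, a difference of 0.52 (SE 0.15) from 22Rv1 control, which median scaling lowered to 0.27 without a call. LNCaP Dox had 7.70, 7.86 and 7.99, overlapping LNCaP control. M4 scramble had 7.25, 6.91 and 7.62 and M4 shGal4 7.51, 7.47 and 7.26, also overlapping, and neither Dox in LNCaP (0.18, SE 0.15, and -0.12 with the within-group axis as a covariate) nor the knockdown (0.16, SE 0.15) gave a call.

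ID1, ID2 and ID3 encode inhibitors of DNA binding that pair with basic helix-loop-helix factors and keep them off DNA. ID1 was 10.12, 10.13 and 10.10 in 22Rv1 control and 9.22, 9.43 and 8.88 in the arrays labelled 22Rv1 Dox. All Dox arrays were lower, but the difference of -0.94 (SE 0.41) was not called. It was called when only the arrays compared entered the fit, with array weights and with the within-group axis as a covariate, where it was -1.29. ID2 was 10.69, 10.68 and 10.83 without Dox and 9.65, 9.97 and 9.40 with Dox, a difference of -1.06 (SE 0.24). For ID3 the levels were 11.08, 10.82 and 11.00 without Dox and 9.97, 9.92 and 10.17 with Dox, a difference of -0.95 (SE 0.29). All 3 genes were thus lower on every 22Rv1 Dox array, by about the same amount. The call for ID3 was lost without either of 22Rv1 control replicates 1 and 3 or 22Rv1 Dox replicates 1 and 2, at -0.89 to -0.93, and without the detection filter.

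LNCaP started from much lower levels and went the other way. ID1 was 6.73, 6.09 and 6.68 in LNCaP control and 7.83, 8.70 and 8.50 in LNCaP Dox, a difference of 1.84 (SE 0.41) or 3.59-fold. ID2 was 6.71, 6.29 and 6.30 without Dox and 7.41, 8.08 and 7.75 with Dox, a difference of 1.31 (SE 0.24). ID3 was 8.02, 7.42 and 7.85 without Dox and 8.29, 9.11 and 8.87 with Dox, a difference of 0.99 (SE 0.29). No LNCaP array with Dox overlapped one without it in any of the 3 genes. With the within-group axis as a covariate, these differences were 0.97, 0.71 and 0.72 and none was called. The LNCaP Dox arrays scored from -26.7 to -24.5 on that axis. The fit carried a slope from within groups across the gap between LNCaP Dox and LNCaP control, so it may remove part of the Dox response itself. The part of that axis in the LNCaP result was not tested beyond this fit. ID3 also lost its call without background correction, at 0.77, and without LNCaP control replicate 2 or LNCaP Dox replicate 2 or 3, at 0.81 to 0.94.

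In 22Rv1-M4, ID1 was 9.90, 9.81 and 10.43 with scramble and 11.05, 11.07 and 8.66 with the knockdown. The first 2 knockdown arrays were higher than all scramble arrays and the last was lower than all of them. ID2 was 10.82, 10.51 and 11.09 with scramble and 10.73, 10.78 and 9.63 with the knockdown, and ID3 was 9.42, 9.37 and 9.62 against 10.53, 10.40 and 8.86. In all 3 genes replicate 3 was the low array. The differences over all arrays were 0.21 for ID1 (SE 0.41), -0.42 for ID2 (SE 0.24) and 0.46 for ID3 (SE 0.29), and none was called. Without replicate 3 they were 1.02, -0.05 and 0.99, and those of ID1 and ID3 were called. For ID1 the difference was -0.18 without replicate 1 and -0.19 without replicate 2, so its direction also rests on single arrays. The cause of the low array was not tested. Its score on the within-group axis was 13.2 against 2.00 and -2.23 for replicates 1 and 2.

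Between the untreated lines, all 3 ID genes were far lower in LNCaP control than in 22Rv1 control. ID1 was 12.3-fold lower (log2 difference -3.62, SE 0.41), ID2 19.7-fold lower (-4.30, SE 0.24) and ID3 9.21-fold lower (-3.20, SE 0.29). In M4 scramble ID3 was lower than in 22Rv1 control, with a log2 difference of -1.50 (SE 0.29), while ID1 (-0.07, SE 0.41) and ID2 (0.07, SE 0.24) had small differences that were not called, and that were -0.81 and -0.43, also not called, with the within-group axis as a covariate. With Dox, LNCaP reached group means of 8.34 for ID1, 7.75 for ID2 and 8.76 for ID3, each below the lowest 22Rv1 Dox array.

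**Figure D2:**
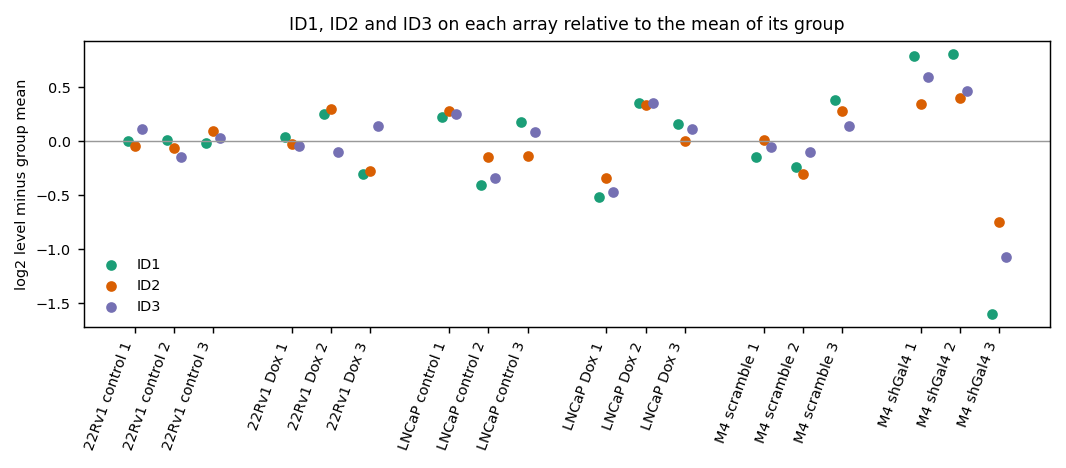
Log2 level of ID1, ID2 and ID3 on each of the 18 arrays minus the mean of its group (vertical axis), with arrays named by group and replicate. The 3 genes lie close together on most arrays, and all 3 are low on M4 shGal4 replicate 3, where the deviation of ID1 is -1.60.

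The 3 ID genes varied together within groups. After subtraction of group means, Pearson's r over the 18 arrays was 0.92 between ID1 and ID2, 0.93 between ID1 and ID3 and 0.83 between ID2 and ID3. Without M4 shGal4 replicate 3, a choice made after seeing the data, these were 0.85, 0.73 and 0.58 over 17 arrays. SMAD6 had r of 0.57 with ID1, 0.68 with ID2 and 0.50 with ID3 over all arrays, and 0.69, 0.72 and 0.49 without that array. BAMBI had 0.65, 0.56 and 0.71, and without that array -0.59, -0.30 and -0.15, so its positive values rest on 1 array. SMAD7 had -0.16 with ID1, and 0.36 without that array. In 22Rv1 Dox ID3 went against ID1 and ID2. Relative to the group mean, replicates 2 and 3 had -0.10 and 0.15 for ID3. They had 0.26 and -0.30 for ID1, and 0.30 and -0.27 for ID2. The points share arrays and normalization.

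CCN2, a secreted matricellular protein induced by TGF-beta and by the YAP/TEAD factors, was highest in M4 scramble, at 8.64, 8.30 and 8.14, and then in 22Rv1 control, at 7.55, 7.34 and 7.46. In the arrays labelled 22Rv1 Dox it was 5.43, 5.38 and 5.44, a difference of -2.04 (SE 0.13) or 4.10-fold lower. The knockdown arrays of 22Rv1-M4 were at 5.57, 5.38 and 5.42, a difference from scramble of -2.91 (SE 0.13) or 7.51-fold lower. CCN2 was thus lower where Dox was given to 22Rv1 and where galectin-4 was knocked down in 22Rv1-M4, and the 2 lower groups overlapped in level. Without background correction these differences were -0.995 and -1.65. In LNCaP the tested probe was above background on none of 6 arrays, at 4.34 to 4.44, which made CCN2 at least 6.63-fold lower in LNCaP control than in 22Rv1 control. M4 scramble exceeded 22Rv1 control by 0.91 (SE 0.13).

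CCN1, the related matricellular protein, was read by 1 probe that stayed between 4.39 and 5.04 on all 18 arrays. It was above background on 2 of 3 arrays in 22Rv1 control and on none in 22Rv1 Dox, on all 6 LNCaP arrays, on none in M4 scramble and on 2 of 3 in M4 shGal4. Its differences ran from -0.29 (SE 0.13) in 22Rv1 Dox to 0.28 (SE 0.13) in M4 shGal4, and none was called. The knockdown gained a call with array weights, at 0.31, and 22Rv1 Dox without 22Rv1 control replicate 3, at -0.42. Both rest on levels near background, where the size of a difference is poorly measured.

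**Figure D3:**
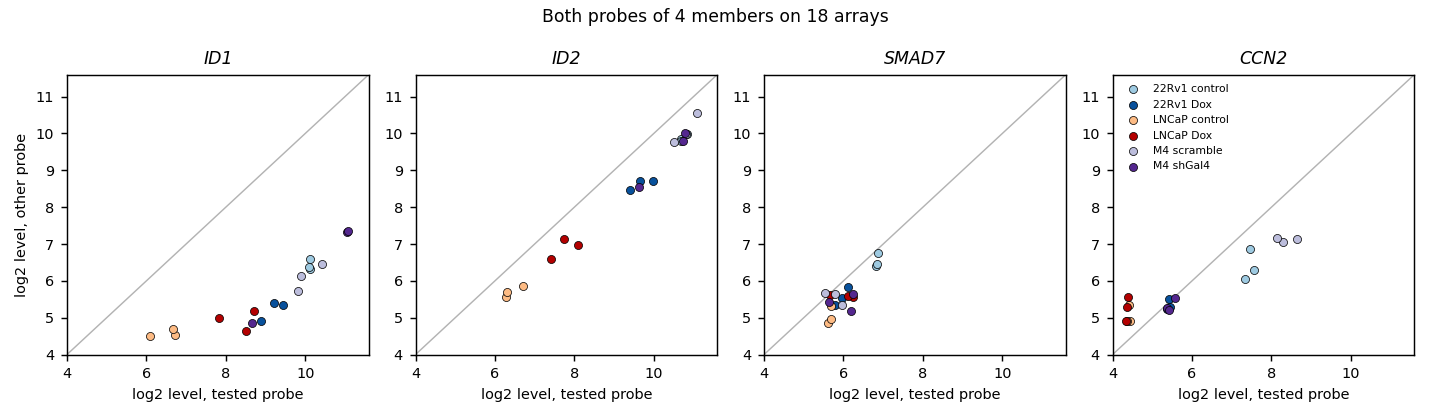
Log2 level of the other probe (vertical axis) against the tested probe (horizontal axis) for the 4 genes read by 2 probes, 1 point per array, coloured by group, with the line of equal level in grey. ID2 runs parallel to the line, the other probe of ID1 is dimmer by up to 3.96 in group mean, and for CCN2 the LNCaP arrays lie above the line.

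Of the 9 genes, 4 had a second probe. The 2 probes of ID2 agreed most closely, with r of 0.99 over 18 arrays, and the second gave -1.25 in 22Rv1 Dox and 1.19 in LNCaP Dox. The second ID1 probe was dimmer by 1.92 to 3.96 in group mean (r of 0.89). It gave -1.21 in 22Rv1 Dox and 0.36 in LNCaP Dox, where it was above background on 2 of 3 arrays, and on none in LNCaP control. On M4 shGal4 replicate 3 it was 4.87 against 7.33 and 7.35 on the others, so both probes showed the low array.

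The SMAD7 probes (r of 0.82) agreed on the lower level in 22Rv1 Dox, -0.89 and -0.96, and differed in sign in the knockdown, at 0.26 and -0.13. In LNCaP Dox the second SMAD7 probe gave 0.54, with no overlap between the groups. The CCN2 probes (r of 0.94) agreed in 22Rv1 Dox, at -2.04 and -1.06, and in the knockdown, at -2.91 and -1.77. The second CCN2 probe was above background on all 6 LNCaP arrays, at 4.91 to 5.55, unlike the tested one, and put LNCaP control 2.54-fold below 22Rv1 control. Probe sequences were not used here, so the transcripts each probe can bind were not compared.

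**Figure D4:**
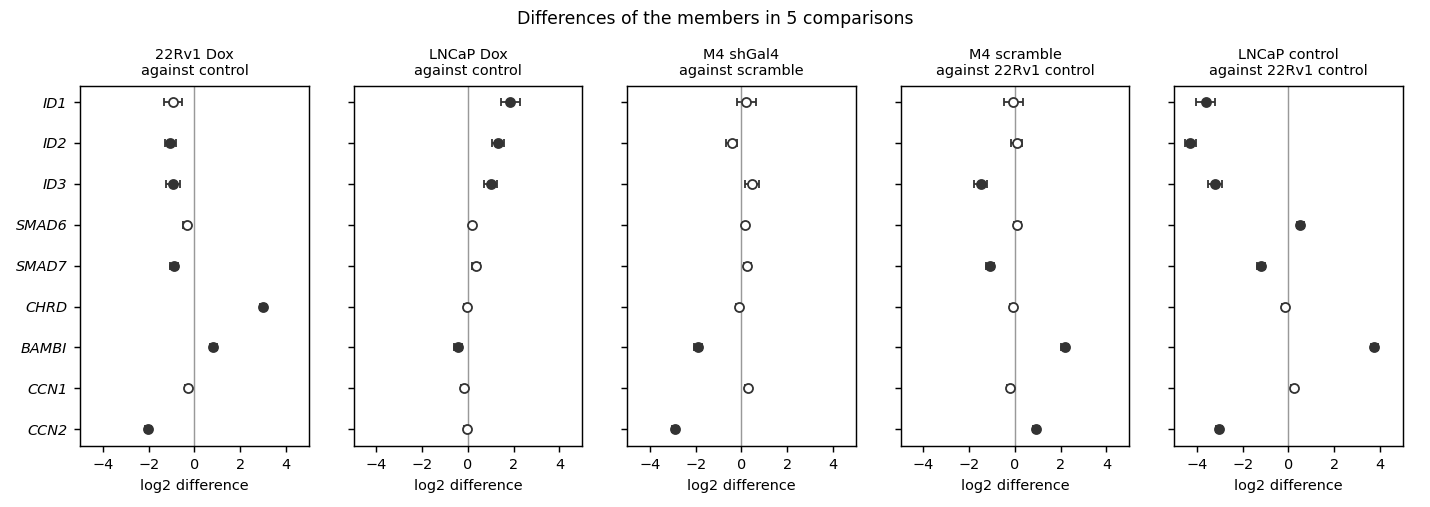
Log2 difference (horizontal axis) of each of the 9 genes in 5 comparisons, with bars of 1 SE from the limma fit and filled symbols for called genes. ID1, ID2 and ID3 lie left of 0 in 22Rv1 Dox and right of it in LNCaP Dox, and CCN2 and BAMBI are the 2 called genes in M4 shGal4.

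In 22Rv1 Dox 6 of the 9 genes were called, 2 higher (CHRD, BAMBI) and 4 lower (ID2, ID3, SMAD7, CCN2), against 24.8% of all genes called, 9.14% higher and 15.7% lower. The median of the 9 was -0.89, and that of all genes was -0.06. LNCaP Dox had 4 called, 3 higher (ID1, ID2, ID3) and 1 lower (BAMBI), where 27.8% of all genes were called, 10.9% higher and 17.0% lower. The medians were 0.18 and -0.08. The knockdown had 2 called, both lower, where 23.3% of all genes were called, 13.0% higher and 10.3% lower, with medians of 0.16 and 0.02. With median scaling the share of all calls that were higher was 25.3% in 22Rv1 Dox and 34.9% in the knockdown, against 36.8% and 55.7% here. Because the 9 genes were chosen with these changes known, nothing is read from how their shares compare with those of all genes.

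M4 scramble against 22Rv1 control had 4 of the 9 called, 2 higher (BAMBI, CCN2) and 2 lower (ID3, SMAD7), where 35.4% of all genes were called, 14.7% higher and 20.7% lower. LNCaP control against 22Rv1 control had 7 called, 2 higher (SMAD6, BAMBI) and 5 lower (ID1, ID2, ID3, SMAD7, CCN2), where 50.3% of all genes were called, 23.7% higher and 26.6% lower. These 2 comparisons and 22Rv1 Dox share the 22Rv1 control arrays. When the Dox response in LNCaP was subtracted from that in 22Rv1, 7 were called, 2 higher (CHRD, BAMBI) and 5 lower (ID1, ID2, ID3, SMAD7, CCN2), where 18.8% of all genes were called, 9.42% higher and 9.39% lower.

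**Figure D5:**
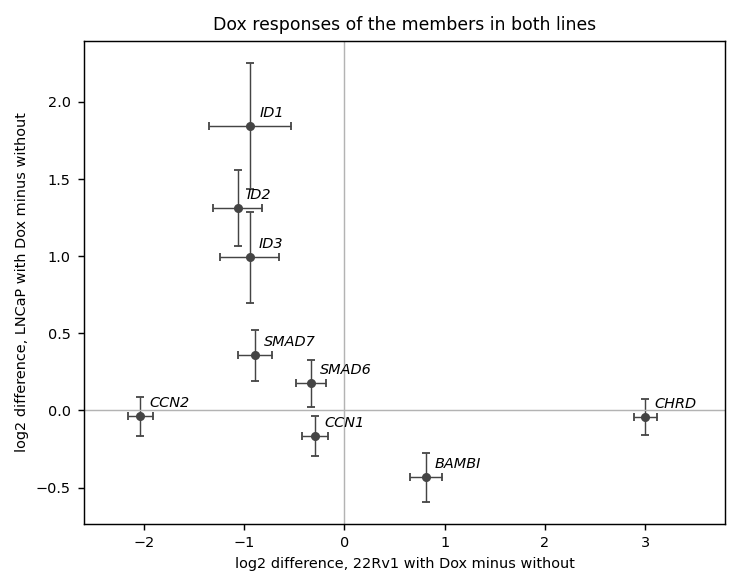
Log2 difference with Dox in LNCaP (vertical axis) against that in 22Rv1 (horizontal axis) for the 9 genes, with bars of 1 SE on both. ID1, ID2, ID3 and SMAD7 lie at the upper left, BAMBI at the lower right, and CHRD and CCN2 near 0 in LNCaP.

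Of 128 other genes listed for these pathways, 124 were on the array and 79 passed the detection filter. In 22Rv1 Dox 24 of the 79 were called, 13 higher and 11 lower, with a median of 0.07. In LNCaP Dox 14 were called, 2 higher and 12 lower, with a median of -0.11, and in the knockdown 24, 17 higher and 7 lower, with a median of 0.09. These are 30.4%, 17.7% and 30.4% of those tested, beside the 24.8%, 27.8% and 23.3% of all genes given above. The lists were also chosen with earlier results of these data known, so nothing is read from how these shares compare. Adjusted p-values for genes of these lists are from limma over all genes tested. They describe the genes named, which were taken for their large differences.

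Among ligands, 5 of 13 tested genes were called in the arrays labelled 22Rv1 Dox. The shares called were 38.5% there, 15.4% in LNCaP Dox and 46.2% in the knockdown, beside 24.8%, 27.8% and 23.3% of all genes. BMP2, a classical BMP ligand, fell from 7.18 ± 0.09 (SD, n = 3) to 4.80 ± 0.32, a log2 difference of -2.39 (SE 0.15, limma adjusted p = 2.3e-10). The Dox arrays were above background on 1 of 3. BMP8B, another BMP, rose by 2.06 (SE 0.37, limma adjusted p = 3.38e-04), INHBB, the beta B subunit of inhibins and activins, by 0.86 (SE 0.15), TGFB3, a TGF-beta ligand, by 0.84 (SE 0.13), and BMP6 by 0.60 (SE 0.19). In LNCaP Dox, 2 ligands were called, both lower, GDF11 with -0.48 (SE 0.17) and AMH at least 1.54-fold. The second GDF11 probe gave -0.17. In the knockdown BMP2 rose by 0.95 (SE 0.15, limma adjusted p = 6.23e-05), TGFB3 by 1.29 (SE 0.13) and INHBB by 0.90 (SE 0.15), whereas BMP8B, BMP6 and AMH fell, with log2 differences of -1.21, -0.61 and -0.69.

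Receptor genes were called in 3 of 10 cases in 22Rv1 Dox, 4 of 10 in LNCaP Dox and 3 of 10 in the knockdown. Of all genes, 24.8%, 27.8% and 23.3% were called in these comparisons. TGFBR2, the type II receptor for TGF-beta, fell in 22Rv1 Dox, with a log2 difference of -0.38 (SE 0.12, limma adjusted p = 0.0232), and in the knockdown, with -1.30 (SE 0.12, limma adjusted p = 5.38e-08), and its second probe gave -0.27 and -1.11. BMPR1B, a type I BMP receptor, was higher in 22Rv1 Dox by 0.65 (SE 0.19), where its second probe gave 0.08. In LNCaP Dox all 4 called genes fell, with differences of -0.89 (SE 0.17) for TGFBR3, the co-receptor betaglycan, -0.72 (SE 0.15) for AMHR2, the receptor of anti-Müllerian hormone, -0.70 (SE 0.21) for BMPR2, the type II BMP receptor, and -0.40 (SE 0.14) for the BMP co-receptor RGMB. AMHR2 rose by 1.88 (SE 0.15) in the knockdown, where TGFBR3 fell by 0.84 (SE 0.17).

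SMAD genes and their regulators had 2 of 15 tested genes called in 22Rv1 Dox, SMAD3, lower with -0.52 (SE 0.18), and the ubiquitin ligase NEDD4L higher by 0.75 (SE 0.18). This was 13.3%, with 6.67% in LNCaP Dox and 26.7% in the knockdown, beside 24.8%, 27.8% and 23.3% of all genes. LNCaP Dox had 1, the SMAD corepressor TGIF2, at -0.65 (SE 0.16). In the knockdown 4 were called, among them NEDD4L at 0.57 (SE 0.18) and the SMAD corepressor TGIF1 at 0.47 (SE 0.16), whose 2 other probes gave 0.37 and -0.15. PMEPA1, a TGF-beta target that restrains the pathway, rose by 1.06 (SE 0.18), while LEMD3, an inner nuclear membrane protein that binds SMADs, fell by 1.17 (SE 0.13). The 2 other PMEPA1 probes gave 0.38 and 0.95. Of the other extracellular antagonists and chordin-processing genes, 5 of 14 were called in 22Rv1 Dox. That is 35.7%, with 7.14% each in LNCaP Dox and the knockdown, beside the shares of all genes just given. The activin antagonist FSTL3 rose by 0.78 (SE 0.14), and NBL1, LTBP3 and LTBP4 fell, with differences of -0.67, -0.41 and -0.61, though the second LTBP4 probe gave -0.11. LTBP2 was the other gene higher, by 0.38 (SE 0.13). LNCaP Dox had 1 called, LTBP4 at -0.56 (SE 0.20), where its second probe gave -0.15. The knockdown had 1, FST, higher by at least 1.36-fold.

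Other targets of BMP and TGF-beta moved both ways in 22Rv1 Dox, with 4 of 18 called higher and 3 lower. Of all genes, 9.14% were called higher and 15.7% lower there. MSX1, a homeobox gene induced by BMPs, rose by 1.09 (SE 0.14, limma adjusted p = 7.61e-06) and GATA2 by 0.73 (SE 0.18), and the collagen gene COL1A1, also among the fibroblast markers, was higher by 0.41 (SE 0.14). IGFBP3, which binds insulin-like growth factors, fell from 11.10 ± 0.18 to 8.40 ± 0.12 (SD, n = 3), a difference of -2.70 (SE 0.23, limma adjusted p = 2.94e-08). SNAI2, a repressor linked to epithelial-mesenchymal transition, fell at least 1.64-fold on the tested probe, while its second probe gave a log2 difference of -0.41, and TAGLN fell by 0.79 (SE 0.19). In LNCaP Dox SNAI2 and JUNB rose, by 0.51 (SE 0.13) and 0.62 (SE 0.22), and TAGLN fell by 0.85 (SE 0.19). The knockdown had 6 of 18 called, 33.3% beside 23.3% of all genes. GATA2 rose by 1.55 (SE 0.18), the cell cycle inhibitor CDKN1A by 1.19 (SE 0.16), IGFBP3 by 0.71 (SE 0.23) and TSC22D1 by 0.62 (SE 0.18). The second IGFBP3 probe gave 1.23, and other TSC22D1 probes gave 0.53, 0.91 and -0.14. ATOH8, a helix-loop-helix target of BMP, fell at least 2.04-fold. ID4, the remaining ID gene, was at least 6.07-fold lower in LNCaP control than in 22Rv1 control, in the direction of ID1, ID2 and ID3.

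Beside CCN2, its relative CCN3 fell in 22Rv1 Dox from 6.68 ± 0.18 to 4.79 ± 0.14 (SD, n = 3), a difference of -1.89 (SE 0.13, limma adjusted p = 5.84e-10). F3, the tissue factor gene, also fell there, by 1.16 (SE 0.19), while the YAP regulator AMOTL2 rose by 0.79 (SE 0.18). Thus 3 of 10 tested CCN and YAP/TEAD genes were called, 30% beside 24.8% of all genes. In LNCaP Dox it was 30% beside 27.8%, and in the knockdown 40% beside 23.3%. In the knockdown, where CCN2 was 7.51-fold lower, the 4 called genes of this list were all higher: F3 by 2.27 (SE 0.19), TEAD2 by 1.11 (SE 0.16), TEAD3 by 0.75 (SE 0.18) and CCN5 by 0.46 (SE 0.15). LNCaP Dox had 3 called, all lower, TEAD4 with -0.71 (SE 0.12), YAP1 with -0.63 (SE 0.20) and TEAD3 with -0.57 (SE 0.18). The 2 other TEAD4 probes gave 0.15 and -0.05.

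In M4 scramble against 22Rv1 control, whose constructs also differ, 39 of the 79 other pathway genes were called, 15 higher and 24 lower. In LNCaP control against 22Rv1 control 39 were called, 16 higher and 23 lower. Each is 49.4% of those tested, beside the 35.4% and 50.3% of all genes given above, and both use the same 22Rv1 control arrays. As the lists were chosen with earlier results known, nothing is read from how these shares compare. BMP2, which was 7.18 in 22Rv1 control, was lower in M4 scramble, with a log2 difference of -2.31 (SE 0.15) and at least 5.50-fold lower in LNCaP control. IGFBP3 had -4.86 and -5.85 (SE 0.23 each), the latter with a limma adjusted p of 7e-15, and its second probe gave -5.24 and -5.78. TEAD2, a DNA-binding partner of YAP, had -2.61 and -3.08 (SE 0.16 each), and CCN3 was at least 3.98-fold and at least 3.88-fold lower. MSX1 was higher in both, with 1.26 and 2.68 (SE 0.14 each). TGFB3 was lower in both, with -0.87 and -2.14 (SE 0.13 each), as were HES1, with -1.05 and -1.95, and PMEPA1, with -1.42 and -1.84. Of the other PMEPA1 probes, 1 gave -0.22 and -0.36 and another gave -1.27 and -1.65. Other genes were higher in M4 scramble and lower in LNCaP control. NBL1 had 1.59 and -1.11 and INHBB had 1.01 and -0.42. SOSTDC1 was higher by 1.28 in M4 scramble and at least 1.41-fold lower in LNCaP control. These 3 genes encode secreted factors, NBL1 and SOSTDC1 being BMP antagonists. TGFBR2 was higher by 0.68 in M4 scramble and at least 1.56-fold lower in LNCaP control, and its second probe gave 0.42 and -0.81. LEMD3 had 0.57 and -1.15. On the tested probe, F3 was higher by 0.58 in M4 scramble and at least 4.99-fold lower in LNCaP control. The second F3 probe gave log2 differences of 0.20 and -1.49. LTBP3, a latent TGF-beta binding protein, and TEAD3 went the other way, with -0.70 and 1.82 and with -0.69 and 0.49. BMPR1B was higher in M4 scramble, with 1.88, though its second probe gave 0.52.

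The genes whose levels most resembled those of each member over the 18 arrays were taken by Pearson's r, for the 8 whose group means spanned at least 1 on the log2 scale. For CCN2 they were CLRN3 (r of 0.97), TGFBR2 (0.96) and RCAN2 (0.96), and for CHRD they were GLDN (0.97), DPEP3 (0.96) and ALDH3B1 (0.95). BAMBI was followed most closely by KIAA2013 (0.97), NRP1 (0.96) and NDRG2 (0.96). ID2 was the gene most like ID1 (0.95), and for ID2 itself they were SNHG5 (0.98), HENMT1 (0.97) and RPL39L (0.97). RAP1GDS1 (0.95) headed the list of ID3, TMED3 (0.93) that of SMAD6 and SCN9A (0.90) that of SMAD7. The 18 points share 3 arrays per group and a common normalization, so these values describe these arrays.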

How the data were processed

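Total RNA of 18 samples was isolated by means of a Zymo kit, its quality read on an Agilent Bioanalyser, and biotin cRNA made with the Ambion MessageAmp kit, per the labels' protocols. The authors deposited a non-normalized table of the intensity of 47303 probes per array, on a linear scale, with a detection p-value for each, and a matrix of log2 values. Scanner software is not given in the sources used here, nor are background settings. The lowest intensity was 83.7 to 90.9 per array, so background had not been subtracted. All but 114 of 851454 values of the deposited log2 matrix lay within 0.01 of quantile-normalized log2 intensities.

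The neqc function of limma 3.58.1 (with R 4.3.3 and statmod 1.5.0) corrected and normalized the intensities, taking background from the detection p-values and adding an offset of 16. The offset narrows differences of dim probes. The filter kept 25675 probes above background (detection p-value under 0.05) on 3 or more arrays, 18408 of them named, and the probe with the highest mean stood for each of 13680 genes. A limma model of 6 group means (12 residual and 8.73 prior degrees of freedom) gave differences, standard errors and two-sided Benjamini-Hochberg adjusted p-values, with a threshold of 0.05. A fold against a group above background on none of its 3 arrays is a lower bound. Probes were named from GEO's platform annotation (30103 with 1 symbol, 8 with several, 17192 with none).

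The 9 genes, the lists and the markers were chosen with earlier results of these data known. Pathway genes named were taken from those called with the largest differences, up to 4 rises and 4 falls per list and comparison, not all of which are printed. Likeness took the 3 genes most alike for each of the 9 whose group means spanned at least 1 on the log2 scale. Whether replicate numbers pair samples is not in the labels, and the main fit used no pairing. Same-number correlations of deviations ran from -0.11 to 0.11. Alternatives changed background correction, scaling, detection filter, probe choice, arrays fitted, weights, replicate block and within-group axis, and left out each array. Precision is limited by the number of arrays.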

Additional observations from a re-analysis of the deposited data

Results flagged for a closer look

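The Dox response in 22Rv1 minus that in LNCaP was called (limma, adjusted p under 0.05 over all genes) for 7 of the 9 genes and for 22 of 79 other pathway genes, which is 27.8% beside 18.8% of all genes, and is given on the log2 scale. Among the 9 it was -2.78 for ID1, -2.37 for ID2, -1.94 for ID3, -1.25 for SMAD7, -1.998 for CCN2, 3.04 for CHRD and 1.25 for BAMBI. For ID1, ID2, ID3 and BAMBI every Dox array lay beyond all its controls, on opposite sides in the 2 lines, while the tested probes of CHRD and CCN2 were above background on none of the 6 LNCaP arrays, where a fall could not have been seen. The second CCN2 probe, above background there, gave -1.25. The 9 genes were chosen with these values known, so their calls are a description. The lists too were chosen with earlier results of these data known, so nothing is read from how 27.8% compares with 18.8%.

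Ligands had -2.45 for BMP2, 2.64 for BMP8B, 1.04 for BMP6, 0.94 for TGFB3 and 0.73 for INHBB. Receptors had 0.84 for TGFBR3 and 0.90 for RGMB. For SMADs and their regulators it was 0.62 for SMAD5, 1.18 for NEDD4L and 0.98 for PPM1A, and for the antagonist FSTL3 0.82. Other probes of SMAD5 gave -0.22 and 1.04, and 3 of the 4 other probes of PPM1A gave negative values, from -0.64 to -0.83. Among other targets it was 1.10 for MSX1, 1.05 for GATA2, -1.69 for SNAI2 and -2.92 for IGFBP3. Of the CCN and YAP/TEAD genes, CCN3 had -1.91, F3 -1.12, AMOTL2 1.22, TEAD3 1.05, TEAD4 0.78 and YAP1 1.11. The 2 other TEAD4 probes gave -0.17 and 0.11, and the second probes of SNAI2, IGFBP3 and F3 gave -0.80, -3.08 and -0.97. The tested probes of BMP2, CCN3 and F3 were above background on 0 of 3 LNCaP control arrays, so a fall with Dox could not have been seen in LNCaP and their values rest on 22Rv1. The causes of these differences were not tested. Groups of 3 arrays are too small for a test of single outlying arrays.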

How the results depend on the processing

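Counts of called genes were within 1.5 times the reported ones in most alternatives. Median scaling called 7 pathway genes in LNCaP Dox, against 14, and 13 in the difference between Dox responses, against 22. Array weights called 38 pathway genes in 22Rv1 Dox, against 24, and 5 of the 9 genes in the knockdown, against 2. With the within-group axis as a covariate LNCaP Dox had 0 of the 9 called, against 4, and 1 pathway gene, against 14. In all, 243 genes were called there, against 3809. That covariate includes the gap between the group means and may remove part of the Dox response. Leaving out 1 array gave 2 to 4 of the 9 and 8 to 11 pathway genes in LNCaP Dox, and 2 to 4 of the 9 in the knockdown, where 4 came without M4 shGal4 replicate 3. Of the differences of the 9 genes, 8 changed sign in at least 1 of the fits, and 0 of these 8 were called in the main fit. Among these 8, that of ID1 in the knockdown was called with array weights (0.84) and without M4 shGal4 replicate 3 (1.02). Over all genes, median scaling called 1927 in the knockdown (3193 otherwise), 2212 in LNCaP Dox and 1707 in the difference between responses (2572 otherwise), and array weights called 6582 in 22Rv1 Dox (3394 otherwise). Median scaling lowered the share of calls that were higher from 36.8% to 25.3% in 22Rv1 Dox, from 55.7% to 34.9% in the knockdown, from 47.1% to 34.2% in LNCaP control against 22Rv1 control, and from 50.1% to 38.5% in the difference between responses, and raised it from 39.1% to 48.5% in LNCaP Dox, with the median of all genes at -0.15 in 22Rv1 Dox. The causes were not tested. With a replicate block, 6 of the 9 were called in 22Rv1 Dox, 3 in LNCaP Dox, where BAMBI lost its call, and 2 in the knockdown. Dim probes such as those of CHRD, CCN1 and CCN2 in LNCaP limit what can be measured.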
